A study of Mus musculus with 8 samples.

Results

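The fatty acid elongases and FADS desaturases were described here across 8 RNA-seq libraries of mouse adipose tissue, 4 from mice lacking Kindlin-2 in brown adipocytes (KO) and 4 from control mice (WT). The 9 genes were chosen by symbol: 6 elongases (Elovl1, Elovl3, Elovl4, Elovl5, Elovl6 and Elovl7) and 3 desaturases (Fads1, Fads2 and Fads3), out of 18395 genes in the deposited count table. Mice of both genotypes had spent 6 hours at 4 °C, so cold exposure was shared by KO and WT and no unexposed group was analysed here. Kindlin-2 is an adaptor protein that activates integrins. The sample labels say adipose tissue only, name no driver of the deletion, and give no age, sex or strain. They also do not say whether the replicates of a genotype came from different animals, so each p-value measures the spread between these libraries.

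Elongases sit in the endoplasmic reticulum and carry out the condensation step that adds carbons from malonyl-CoA to an acyl-CoA. Each elongase prefers a range of chain lengths and degrees of saturation, and the desaturases of Fads1 and Fads2 place double bonds near the carboxyl end of polyunsaturated chains. In brown fat, Elovl3 is known as a gene that cold induces strongly, while Elovl6 is a known target of the lipogenic regulators SREBP-1 and ChREBP.

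Library totals ran from 35734373 to 40927141 counts in KO and from 33672272 to 43253559 in WT. Levels are given as CPM, each gene's counts scaled to a common library size with TMM factors. Fermt2, which encodes Kindlin-2, stood at 192, 132, 173 and 174 CPM in KO replicates 1 to 4, against 239, 235, 244 and 201 CPM in WT replicates 1 to 4, and the log2 difference was -0.45 ± 0.14 (SE), at an edgeR adjusted p of 0.134. Brown adipocyte markers were counted in every library and their summed level was 7600 to 10400 CPM in KO and 13100 to 14200 CPM in WT. The abundant markers differed unequally. Ucp1 averaged 3260 CPM in KO and 5980 CPM in WT, and Pdk4 1870 CPM in KO and 3500 CPM in WT. Their log2 fold changes were -0.88 and -0.90, against -0.09 for Cidea and -0.10 for Cox8b. With all 8 libraries immune markers lay higher in KO: 8 of 8 for macrophages, 8 of 8 for dendritic cells, 8 of 8 for T and NK cells, 5 of 5 tested for B and plasma cells and 10 of 10 interferon-induced genes, with 0 called by edgeR. Dendritic markers summed to 487 to 1460 CPM in KO and 320 to 415 CPM in WT. A pair of libraries stood apart: KO replicate 2 had 4160 CPM over 10 interferon-induced genes, against 178 to 399 CPM elsewhere, and WT replicate 3 had 42500 CPM over 10 skeletal muscle genes, against 32.3 to 334 CPM elsewhere. Results are therefore also given without these 2 libraries, called the 6-library comparison. There 6 of 8 macrophage, 7 of 8 dendritic, 7 of 8 T and NK and 3 of 4 tested B and plasma cell markers lay higher in KO. Of the 10 interferon-induced genes only 1 did, with a median log2 fold change of -0.38, against 1.57 with all 8 libraries. In whole tissue, fewer cells of a type and less RNA per cell cannot be told apart.

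The promoter windows of 3 elongases are shown because these genes give the contrast described in the values that follow: Elovl1 lay higher in KO, while Elovl5 and Elovl6 are the most abundant members and overlapped between genotypes. Each window runs from 250 bases before to 50 bases after the annotated start in RefSeq (build GRCm38.p6) and is read 5′ to 3′ on the gene's strand. Capitals mark matches to the CCAAT box (CCAAT, on either strand) and to the cyclic AMP response element (TGACGTCA, its own reverse complement). The first window lies at chr4:118427843-118428142 (+), the second at chr9:77917115-77917414 (+) and the third at chr3:129532136-129532435 (+).
Elovl1: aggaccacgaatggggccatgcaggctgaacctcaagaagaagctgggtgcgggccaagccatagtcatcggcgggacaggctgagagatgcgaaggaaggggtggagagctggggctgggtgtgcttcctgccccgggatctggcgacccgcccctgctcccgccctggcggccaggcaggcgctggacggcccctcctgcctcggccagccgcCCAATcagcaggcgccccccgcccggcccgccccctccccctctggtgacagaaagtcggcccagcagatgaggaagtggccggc
Elovl5: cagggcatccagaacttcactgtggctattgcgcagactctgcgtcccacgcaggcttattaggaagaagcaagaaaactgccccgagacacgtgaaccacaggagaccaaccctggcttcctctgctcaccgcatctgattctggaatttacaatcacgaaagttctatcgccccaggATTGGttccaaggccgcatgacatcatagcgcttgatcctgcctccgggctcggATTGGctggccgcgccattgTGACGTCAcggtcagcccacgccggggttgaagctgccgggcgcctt
Elovl6: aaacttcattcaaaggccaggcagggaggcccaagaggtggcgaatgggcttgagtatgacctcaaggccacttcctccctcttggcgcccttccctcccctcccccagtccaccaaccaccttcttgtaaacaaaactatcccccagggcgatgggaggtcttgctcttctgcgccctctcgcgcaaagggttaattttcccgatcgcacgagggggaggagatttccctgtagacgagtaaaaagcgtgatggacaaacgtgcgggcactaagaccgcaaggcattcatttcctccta
The Elovl1 window shown held 1 CCAAT box, 35 bases upstream of the start. RefSeq has a second Elovl1 start 1608 bases away, whose window (not shown) matched neither motif. The Elovl5 window held 2 in reverse orientation, 71 and 17 bases upstream, and a cyclic AMP response element 3 bases downstream. The Elovl6 window matched neither motif. Of 32851 promoter windows of this length, 37.4% held a CCAAT box and 1.79% the cyclic AMP response element. The letters TCACNCCAC of a sterol regulatory element were searched on both strands as well. They matched no window of a member and 1.24% of all windows. The E-box (CACGTG), the GC box (GGGCGG) and direct repeats for PPAR and LXR were also searched and are not marked. The Elovl5 window held an E-box 161 bases upstream, and the Elovl1 window shown held several GC boxes. Of all windows, 7.15% held an E-box and 35.7% a GC box. The direct repeats matched no window of a member. The RefSeq windows available here covered 7 of the 9 members. They held none for Elovl3 and Fads1, so neither gene could be shown or searched.

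Relative to exon length, Elovl6 was the most abundant member in both genotypes, and Elovl3 held a different place in the order of levels in each. Per kilobase of annotated exon, Elovl6 averaged 42.3 ± 14.0 CPM in KO and 49.8 ± 10.8 CPM in WT (SD, n = 4 each). Elovl5 came next, with 34.4 ± 6.61 CPM per kilobase in KO and 30.1 ± 4.08 in WT. Elovl3 averaged 6.20 ± 1.86 CPM per kilobase in KO and 14.9 ± 3.40 in WT, which put it at rank 6 of the 9 in KO and at rank 3 in WT.

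In KO the order was Elovl6, Elovl5, Elovl1, Fads3, Fads2, Elovl3, Fads1, Elovl7 and Elovl4. Neighbours in that order overlapped between libraries except at 3 steps, from Elovl5 to Elovl1, from Elovl1 to Fads3 and from Fads1 to Elovl7. In WT the order was Elovl6, Elovl5, Elovl3, Elovl1, Fads3, Fads2, Fads1, Elovl4 and Elovl7, where the steps from Elovl3 to Elovl1, from Fads2 to Fads1 and from Elovl4 to Elovl7 overlapped. Elovl4 and Elovl7 were scarce in both genotypes, at most 0.200 CPM per kilobase in a KO library and 0.224 in a WT library. The plot of levels per length shows the same gap between these 2 genes and the other 7.

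**Figure D1:**
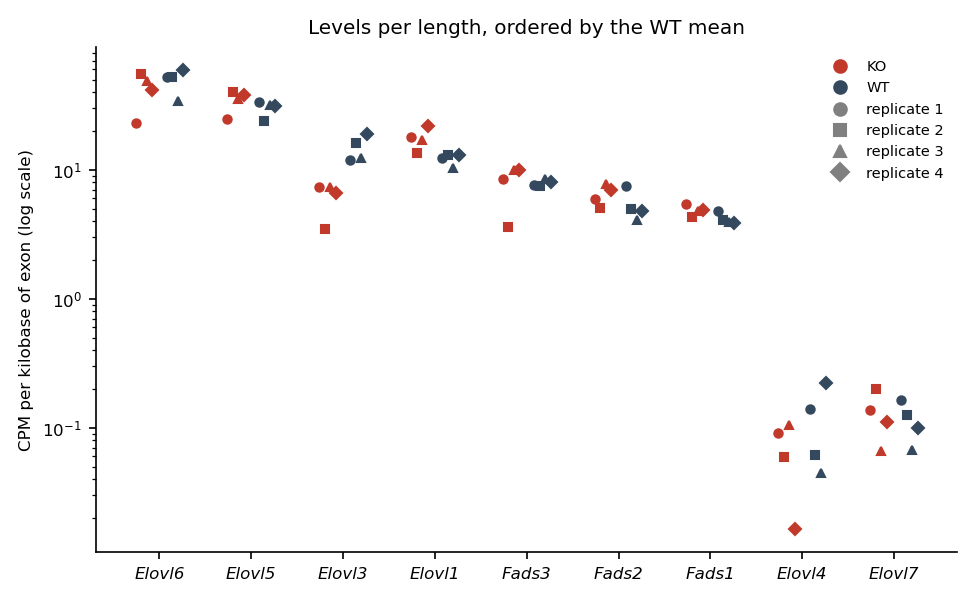
Level of each gene in CPM per kilobase of exon (log scale), with the genes in the order of their WT mean, KO libraries left of WT libraries, and 1 marker shape per replicate. Elovl6 and Elovl5 lie highest, Elovl4 and Elovl7 lie far below the rest, and Elovl3 lies between 3.46 and 7.42 in KO and between 11.9 and 19.1 in WT.

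Elovl3, which extends saturated and monounsaturated very long chains, had the largest difference among the members. Its level was 14.7, 6.84, 14.5 and 13.0 CPM in KO replicates 1 to 4, against 23.5, 31.9, 24.4 and 37.7 CPM in WT replicates 1 to 4. Every KO library was below the lowest WT library, and the lowest value came from KO replicate 2. The means were 12.2 ± 3.68 CPM in KO and 29.4 ± 6.71 CPM in WT (SD, n = 4 each), a log2 fold change of -1.26 with a 95% interval of -1.84 to -0.68. With all 8 libraries the edgeR adjusted p was 0.0981, above the threshold of 0.05. In the 6-library comparison Elovl3 fell, by 1.14 on the log2 scale (0.453 of the WT level, edgeR adjusted p = 0.0289), and without KO replicate 2 alone the adjusted p was 0.0335 at a log2 fold change of -1.06. DESeq2 with all 8 libraries gave an adjusted p of 0.00037. Elovl3 shares 10 exonic bases with Pitx3 on the opposite strand, and Pitx3 itself had at most 0.714 CPM in KO and 5.89 CPM in WT.

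Most adipocyte markers also had lower levels in KO, though edgeR called 0 of them with all 8 libraries. Of 10 brown adipocyte markers 9 lay lower in KO and 3 had an unadjusted p under 0.05, and of 10 general adipocyte markers 9 lay lower and 4 had such a p, with summed levels of 21500 to 28900 CPM in KO and 27100 to 32700 CPM in WT for the general list. Over all genes tested, 21.5% had such a p (11.1% lower in KO). When libraries were scaled to the general adipocyte markers in place of all genes, the Elovl3 difference was -0.94 on the log2 scale (edgeR adjusted p = 0.0351), against -1.26 with TMM factors. The call was not particular to Elovl3, since 1151 genes were called with that scaling, against 0 with TMM factors. Elovl1 was called as well, at 0.84 (edgeR adjusted p = 0.0263). That scaling moved the median of all genes to 0.33; Elovl3 stood at -1.27 relative to it, a value that a scaling common to all genes leaves nearly the same by construction. The part of the adipocyte markers in the Elovl3 difference was not tested.

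**Figure D2:**
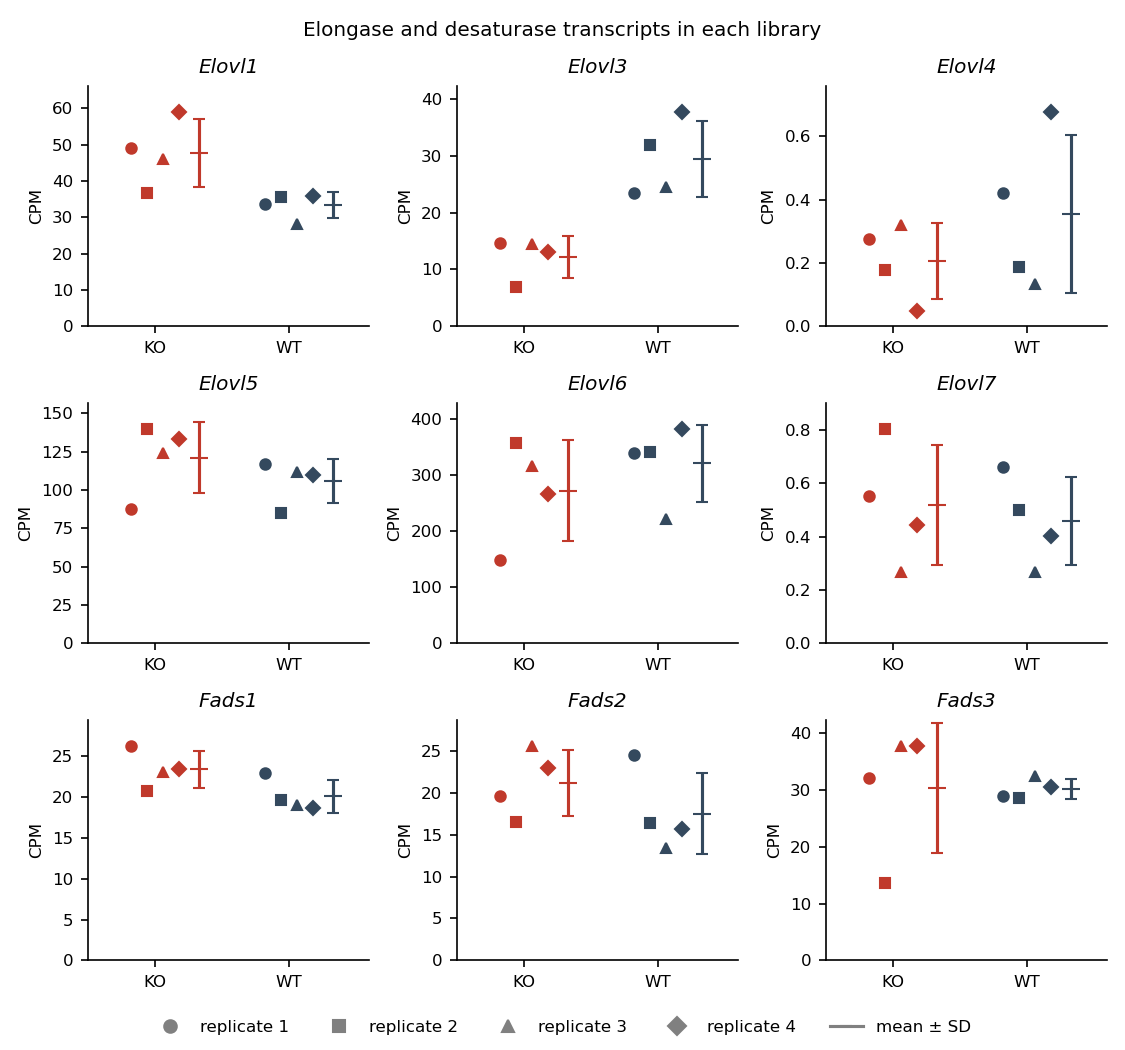
CPM of each elongase and desaturase in every library (vertical axes from 0, a separate scale for each gene), KO left of WT, with a marker shape per replicate and the mean ± SD beside the points. KO and WT do not overlap for Elovl1 (KO higher) and Elovl3 (KO lower), and KO replicate 2 is the lowest library for Elovl3 and Fads3.

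Elovl1, the broadly expressed elongase of very long saturated and monounsaturated chains that feed sphingolipids, lay on the other side. It measured 49.2, 36.6, 46.1 and 59.1 CPM in KO replicates 1 to 4, against 33.7, 35.7, 28.3 and 35.8 CPM in WT replicates 1 to 4. The groups did not overlap, although KO replicate 2 was only just above the highest WT library. The means were 47.8 ± 9.26 CPM in KO and 33.4 ± 3.51 CPM in WT (SD, n = 4 each). The log2 fold change was 0.52 with a 95% interval of 0.17 to 0.86 (edgeR adjusted p = 0.133). In the 6-library comparison Elovl1 rose, by 0.55 on the log2 scale, 1.47 times the WT level (edgeR adjusted p = 0.0489). Without KO replicate 2 alone the adjusted p was 0.0449, and DESeq2 on all 8 libraries gave 0.0493.

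Most endothelial markers lay on the same side as Elovl1. Of 10 such markers 9 lay higher in KO, while edgeR called 0 over the 8 libraries. An unadjusted p under 0.05 was reached by 7, against 21.5% of all genes (10.4% higher in KO). The 6-library comparison called 5 of them, against 3.32% of all genes. Their summed levels were 3100, 1770, 2340 and 3000 CPM in KO replicates 1 to 4, against 2000, 1900, 1470 and 1720 CPM in WT replicates 1 to 4. KO replicate 2, the KO library with the least Elovl1, was also the KO library with the lowest endothelial sum. That low place was not particular to endothelial markers. The mural and smooth muscle sum was 691 CPM in KO replicate 2, against 1150, 1110 and 1190 CPM in KO replicates 1, 3 and 4. Among KO libraries the fibroblast and progenitor sum (655 CPM) and the general adipocyte sum (21500 CPM) were lowest there too. Macrophage, dendritic, and T and NK markers also lay higher in KO with all 8 libraries. Their sums were instead highest in KO replicate 2, at 569, 1460 and 147 CPM. All 10 endothelial markers were counted in every library, and their part in the Elovl1 difference was not tested. Elovl1 shares 53 of its 2726 exonic bases with Cdc20 on the opposite strand. Cdc20, an activator of the anaphase-promoting complex, had 3.15 to 6.66 CPM in KO and 1.5 to 3 CPM in WT over its whole length, and the strand setting of the counting is not given in the sources used here.

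Elovl6, which turns palmitoyl into stearoyl chains, varied more between libraries than between genotypes. It measured 149, 357, 315 and 266 CPM in KO replicates 1 to 4, against 338, 340, 221 and 382 CPM in WT replicates 1 to 4. KO replicate 1 and WT replicate 3 were the low libraries, and the ranges overlapped. The log2 fold change was -0.23, with a 95% interval of -0.84 to 0.37 (edgeR adjusted p = 0.627), and it was -0.04 without KO replicate 1. In the 6-library comparison the value was -0.54 with an interval of -1.09 to 0.02 (edgeR adjusted p = 0.228). Scaled by total counts alone or to the adipocyte markers, the sign turned, to 0.01 and 0.12, with the median of all genes at 0.26 and 0.33.

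Fasn and Acaca, like Elovl6, were low in KO replicate 1 and WT replicate 3, whereas Scd1 was low in KO replicate 1 but not in WT replicate 3. Fasn, the fatty acid synthase that supplies palmitate, measured 657, 6460, 3170 and 2320 CPM in KO replicates 1 to 4, against 3870, 3290, 2040 and 4750 CPM in WT replicates 1 to 4. Acaca, which makes the malonyl-CoA used in synthesis and elongation, measured 151, 832, 522 and 451 CPM in KO, against 588, 592, 318 and 643 CPM in WT in the same order. Both had their lowest level in KO replicate 1 and their highest in KO replicate 2. Scd1, the stearoyl-CoA desaturase that acts on the product of Elovl6, ran from 4450 CPM in KO replicate 1 to 24800 CPM in KO replicate 2, and from 11900 to 28800 CPM in WT. The log2 fold changes with all 8 libraries were -0.15 for Fasn, -0.13 for Acaca and -0.47 for Scd1 (edgeR adjusted p = 0.905, 0.89 and 0.596). In the 6-library comparison they were -0.95, -0.70 and -1.02 (edgeR adjusted p = 0.334, 0.363 and 0.244).

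**Figure D3:**
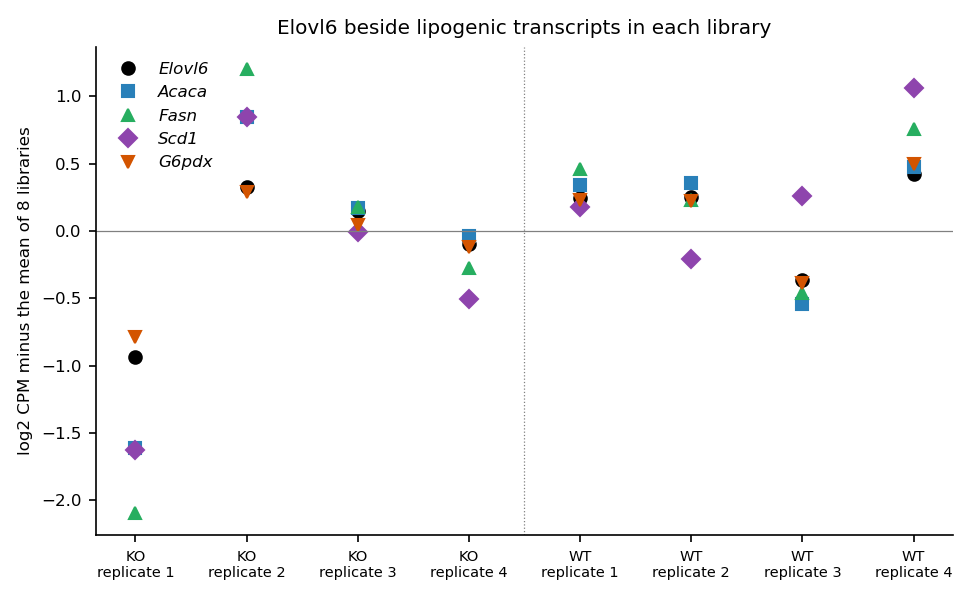
log2 CPM of Elovl6 and 4 lipogenic transcripts in each library, as the difference from the mean of the 8 libraries, KO left of WT. All 5 genes are lowest in KO replicate 1, and all but Scd1 are also below their mean in WT replicate 3.

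The enzymes of the polyunsaturated route, Elovl5, Fads1 and Fads2, each averaged somewhat more in KO, with intervals that included 0. Elovl5, which extends polyunsaturated chains between the desaturation steps, had 87.8, 140, 124 and 133 CPM in KO replicates 1 to 4, against 117, 84.9, 112 and 110 CPM in WT replicates 1 to 4. All KO libraries but replicate 1 exceeded every WT library, and the log2 fold change was 0.19 with an interval of -0.18 to 0.57 (edgeR adjusted p = 0.508).

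Fads2 opens the route by desaturating linoleic and alpha-linolenic acid. It had 19.6, 16.5, 25.6 and 22.9 CPM in KO replicates 1 to 4, against 24.5, 16.4, 13.4 and 15.7 CPM in WT replicates 1 to 4. WT replicate 1 lay among the high KO libraries, and the log2 fold change was 0.27 (-0.19 to 0.74; edgeR adjusted p = 0.451), or 0.48 without WT replicate 1. Fads1, which makes arachidonic and eicosapentaenoic acid, had 26.3, 20.7, 23.1 and 23.5 CPM in KO, against 23.0, 19.7, 19.0 and 18.7 CPM in WT in the same order. Its libraries differed least among the members in KO, with a coefficient of variation of 9.80%, against 10.0% in WT. The log2 fold change of Fads1 was 0.22 (-0.05 to 0.49; edgeR adjusted p = 0.306).

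Fads3, whose product desaturates sphingoid bases, was held apart by a single library. It measured 32.2, 13.7, 37.8 and 37.7 CPM in KO replicates 1 to 4, against 28.9, 28.6, 32.4 and 30.6 CPM in WT replicates 1 to 4. The coefficient of variation was 37.5% in KO and 5.87% in WT. With all libraries the log2 fold change was 0.01 (-0.61 to 0.64; edgeR adjusted p = 0.987), and in the 6-library comparison it was 0.29 (0.02 to 0.56; edgeR adjusted p = 0.186). KO replicate 2, the low library, is the one with the high interferon-induced sum, whose part in the Fads3 level was not tested.

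The 3 desaturase genes lie together on chromosome 19 in GRCm38 (GENCODE M21), Fads3 at 10041569 to 10060110 on the plus strand, Fads2 at 10062765 to 10101746 on the minus strand and Fads1 at 10182888 to 10196877 on the plus strand. Between the ends of Fads3 and Fads2 lie 2.65 kb, and between the starts of Fads2 and Fads1 81.1 kb. The neighbours Fads2 and Fads3 differed in KO replicate 2, where Fads3 was the lowest of all 8 libraries and Fads2 was not. Elovl3 is on the same chromosome, at 46131897 to 46135694.

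Elovl4, known for the extremely long chains of retina, skin and brain, and Elovl7, which acts on saturated chains, had few counts. Elovl4 had 12, 8, 12 and 2 counts in KO replicates 1 to 4, against 14, 6, 4 and 27 in WT replicates 1 to 4. Elovl7 had 24, 36, 10 and 18 counts in KO, against 22, 16, 8 and 16 in WT in the same order. Both ranges overlapped. The log2 fold change was -0.80 (-2.34 to 0.75) for Elovl4 and 0.18 (-0.88 to 1.24) for Elovl7, with edgeR adjusted p of 0.510 and 0.849. The Elovl4 value was -0.27 without WT replicate 4, and the Elovl7 value was -0.12 without KO replicate 2. No difference passed the test for these genes, and both intervals allow a change in either direction.

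All 9 members passed the filter on low counts, Elovl4 with 2 libraries of each genotype at or above the minimum of 0.27 CPM (before TMM scaling) and Elovl7 with 4 KO and 3 WT libraries. With all 8 libraries edgeR called 0 of the 9 at an adjusted p under 0.05, and 0% of the 13901 genes tested. At an unadjusted p under 0.05 there were 2 of the 9, Elovl1 and Elovl3, 1 in each direction, against 21.5% of all genes tested (10.4% higher and 11.1% lower in KO), so the share among the members was near the background. The groups did not overlap for the same 2 members, against 13.4% of all genes (5.8% with KO above and 7.56% with KO below). DESeq2 gave an adjusted p for 7 members and called 2 of them (8.71% of all genes with one, 4% higher and 4.71% lower in KO), limma-voom called 0 (0% of all genes), and its form with a weight for each library's quality (quality-weighted voom) called 2, against 6.55% of all genes (2.94% higher and 3.62% lower in KO). In the 6-library comparison edgeR called 2 of the 9, 1 in each direction, against 3.32% of all genes (1.82% higher and 1.5% lower in KO). The call in that comparison depended on KO replicate 2: without it alone 2 members and 361 genes (2.57% of those tested) were called, and without WT replicate 3 alone 0 members and 0 genes.

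Direction among the members was mixed. With all 8 libraries 6 of the 9 lay higher in KO (median log2 fold change 0.18, against 0.004 over all genes tested). In the 6-library comparison the member median was 0.14 where all genes had 0.011. Among the 6, Fads3 (0.01) and Elovl7 (0.18) changed sign in 7 and 4 of the alternatives.

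**Figure D4:**
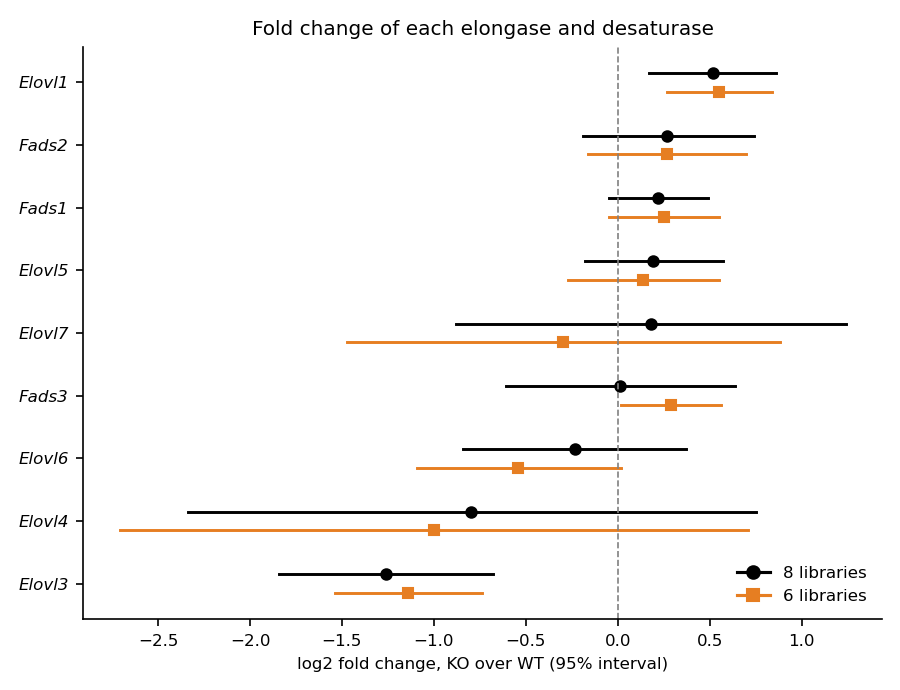
log2 fold change of each member, KO over WT, with its 95% interval, from edgeR on all 8 libraries (black circles) and on the 6-library comparison (orange squares). The intervals of Elovl1 and Elovl3 exclude 0 with both sets of libraries, and those of Elovl4 and Elovl7 are the widest.

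Ratios within a library do not depend on how libraries are scaled. The log2 ratio of Elovl3 to Elovl5 was -2.58, -4.36, -3.10 and -3.36 in KO replicates 1 to 4, against -2.32, -1.41, -2.19 and -1.55 in WT replicates 1 to 4. All KO ratios were below all WT ratios, with a mean difference of -1.48. The log2 ratio of Elovl3 to Elovl6 averaged -4.46 ± 0.97 in KO and -3.44 ± 0.29 in WT, and overlapped because KO replicate 1, low in Elovl6, had -3.35. The difference of -1.02 became -0.60 without KO replicate 2.

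Elovl1 to Elovl6 averaged -2.46 ± 0.73 in KO and -3.24 ± 0.20 in WT on the log2 scale (SD, n = 4 each), with KO replicate 2 at -3.29 inside the WT range. The difference was 0.78, and 0.49 without KO replicate 1. Fads1 to Fads2 averaged 0.16 ± 0.26 in KO and 0.23 ± 0.24 in WT, and Elovl5 to Fads2 2.51 ± 0.41 in KO and 2.63 ± 0.38 in WT. Both of these ratios overlapped between the genotypes. No test was made on the ratios, since the genes were chosen with earlier results of these data known.

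The genes whose levels followed a member most closely over the 8 libraries were found among 11630 candidates, so high correlations are partly a matter of search, and genotype, depth and tissue makeup are shared by all points. Elovl1 was nearest to Slfn5 (r = 0.991, rho = 0.976), Tgfb1, a growth factor (r = 0.985), and Flt1, a receptor of vascular endothelial growth factor (r = 0.980). Flt1 overlapped slightly between genotypes and measured 419, 247, 340 and 442 CPM in KO replicates 1 to 4, against 211, 261, 179 and 253 CPM in WT replicates 1 to 4. Elovl3 was nearest to Acsl1, an acyl-CoA synthetase of adipocytes (r = 0.982, rho = 0.952), Acbd4 (r = 0.967) and Cryzl1 (r = 0.966).

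Elovl6 was nearest to G6pdx, which supplies NADPH for lipid synthesis (r = 0.988, rho = 0.976), Snap29 (r = 0.978) and Acaca (r = 0.977). G6pdx had 60.7, 128, 108 and 96.2 CPM in KO replicates 1 to 4, against 123, 122, 80.1 and 148 CPM in WT replicates 1 to 4, and was low in the same libraries as Elovl6. Fads1 was nearest to Lpcat4 (r = 0.986, rho = 0.976), Cyth1 (r = 0.979) and Cers4, a ceramide synthase (r = 0.970). Lpcat4, an acyltransferase of lysophospholipids, averaged 13.7 ± 3.57 CPM in KO and 8.50 ± 2.16 CPM in WT (SD, n = 4 each; edgeR adjusted p = 0.159).

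The other enzymes of the elongation cycle reduce and dehydrate what the elongases condense. Of 9 such genes and electron carriers 7 lay lower in KO (median log2 fold change -0.26), and edgeR called 0. An unadjusted p under 0.05 was reached by 4, all lower, against 21.5% of all genes (11.1% lower in KO). DESeq2 and limma-voom called 0, and quality-weighted voom 1, against 8.71%, 0% and 6.55% of all genes. Hsd17b12, the ketoacyl reductase, measured 106, 178, 196 and 160 CPM in KO replicates 1 to 4, against 217, 234, 206 and 273 CPM in WT replicates 1 to 4. No KO library reached the lowest WT library (log2 fold change -0.54 ± 0.19 SE, edgeR adjusted p = 0.167). Hacd2 and Hacd1, dehydratases, differed by -0.46 ± 0.15 and -0.57 ± 0.20 (edgeR adjusted p = 0.157 and 0.166). Tecr, the last reductase, averaged 248 ± 53.0 CPM in KO and 297 ± 13.9 CPM in WT (edgeR adjusted p = 0.349).

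Among the other desaturases no gene passed the test. That list of 8 genes also held the elongase Elovl2. Of the 8, 5 were tested, and 2 lay higher and 3 lower in KO (median -0.03), while 4 lay higher in the 6-library comparison (median 0.14). With all 8 libraries edgeR, DESeq2 and both forms of limma-voom called 0, with 0 at an unadjusted p under 0.05. Scd2 averaged 26.4 ± 8.08 CPM in KO and 19.0 ± 3.04 CPM in WT (edgeR adjusted p = 0.234). Degs2, a sphingolipid desaturase, averaged under 1 CPM in both genotypes. Elovl2, the elongase that with Elovl5 leads to docosahexaenoic acid, averaged 0.179 CPM in KO and 0.179 CPM in WT and was not tested because of its low counts.

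In the list of malonyl-CoA and fatty acid synthesis, 8 of 10 genes lay lower in KO (median -0.08), and in the 6-library comparison all 10 did (median -0.51, with 0 called). The 8 include genes with almost no difference over all libraries: Slc25a1 and Acss2 had a rounded log2 fold change of 0, and Acacb -0.02. DESeq2 and quality-weighted voom called 1 each, against 8.71% and 6.55% of all genes. edgeR and limma-voom called 0, and 2 had an unadjusted p under 0.05, against 21.5% of all genes. The 2 are mitochondrial fatty acid synthesis genes rather than suppliers of cytosolic palmitate. Oxsm, the mitochondrial ketoacyl synthase, averaged 10.3 ± 2.04 CPM in KO and 17.1 ± 0.969 CPM in WT (log2 fold change -0.73 ± 0.16 SE, edgeR adjusted p = 0.0981). Mcat, the mitochondrial malonyl transferase, averaged 38.0 ± 4.84 CPM in KO and 48.5 ± 1.65 CPM in WT (edgeR adjusted p = 0.147).

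Among 15 lipid sensing regulators 9 lay lower in KO (median -0.18). edgeR and limma-voom called 0, and 3 had an unadjusted p under 0.05, against 21.5% of all genes. DESeq2 called 2 and quality-weighted voom 1, against 8.71% and 6.55% of all genes. Those with the smallest p were Tmem135, a peroxisomal membrane protein, Rxra, the partner of PPAR and LXR receptors, and Insig2, which holds SREBP in the endoplasmic reticulum. Rxra averaged 80.0 ± 4.26 CPM in KO and 106 ± 14.9 CPM in WT, with all KO libraries below all WT libraries (edgeR adjusted p = 0.133). Srebf1, the gene of SREBP-1, averaged 85.7 ± 19.8 CPM in KO and 107 ± 5.38 CPM in WT (edgeR adjusted p = 0.290) and was lowest in KO replicate 1, at 57.6 CPM. Mlxipl, the gene of ChREBP, was highest in that same library, at 473 CPM.

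Enzymes that use the chains were split. Of 6 ceramide synthases 4 were tested and 3 lay higher in KO, among them Cers5 with 46.8 ± 5.67 CPM in KO and 36.2 ± 4.48 CPM in WT (edgeR adjusted p = 0.162), while Cers2, the synthase of very long chain ceramides, averaged 161 ± 7.27 CPM in KO and 170 ± 25.5 CPM in WT. edgeR, DESeq2 and both forms of limma-voom called 0 of the 4, and 1 had an unadjusted p under 0.05, against 21.5% of all genes. Of 11 acyltransferases that place chains in phospholipids 6 lay higher in KO. edgeR and limma-voom called 0, and 6 had an unadjusted p under 0.05, against 21.5% of all genes. DESeq2 called 3 and quality-weighted voom 2, against 8.71% and 6.55% of all genes. Lpcat1 and Lpcat3 went opposite ways. Lpcat1, which prefers saturated chains, measured 16.6, 14.5, 13.3 and 14.7 CPM in KO replicates 1 to 4, against 10.2, 10.3, 7.53 and 8.39 CPM in WT replicates 1 to 4 (log2 fold change 0.70 ± 0.15 SE). Lpcat3, which inserts polyunsaturated chains, measured 52.1, 55.1, 60.8 and 58.9 CPM in KO, against 83.5, 72.1, 75.0 and 87.8 CPM in WT in the same order (log2 fold change -0.49 ± 0.11 SE). Neither pair of groups overlapped, and both edgeR adjusted p were 0.0981.

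The peroxisomal enzymes that shorten chains to complete docosahexaenoic acid lay lower in 6 of 7 cases (median -0.62). Genes that activate long or very long chains, or carry them into peroxisomes, lay lower in 8 of 10 tested (median -0.47). edgeR and limma-voom called 0 in both lists, with 6 and 7 genes at an unadjusted p under 0.05, and DESeq2 called 4 in each. The 6-library comparison called 2 in each, all lower, and quality-weighted voom called 5 and 2. Over all genes, 21.5% had such an unadjusted p, DESeq2 called 8.71%, the 6-library comparison 3.32% and quality-weighted voom 6.55%. Of the peroxisomal list the 6-library comparison called Ehhadh (log2 fold change -1.23, edgeR adjusted p = 0.0313) and Hsd17b4 (-0.80, edgeR adjusted p = 0.0335). Of the other list it called Slc27a2 (-0.86, edgeR adjusted p = 0.0289) and Acsl1 (-0.69, edgeR adjusted p = 0.0486). Abcd3, a peroxisomal acyl-CoA transporter, averaged 214 ± 47.1 CPM in KO and 333 ± 39.4 CPM in WT (edgeR adjusted p = 0.119), and Scp2, the peroxisomal thiolase and lipid carrier, 650 ± 53.4 CPM in KO and 939 ± 82.9 CPM in WT (edgeR adjusted p = 0.0981). For both genes the highest KO library was below the lowest WT library.

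**Figure D5:**
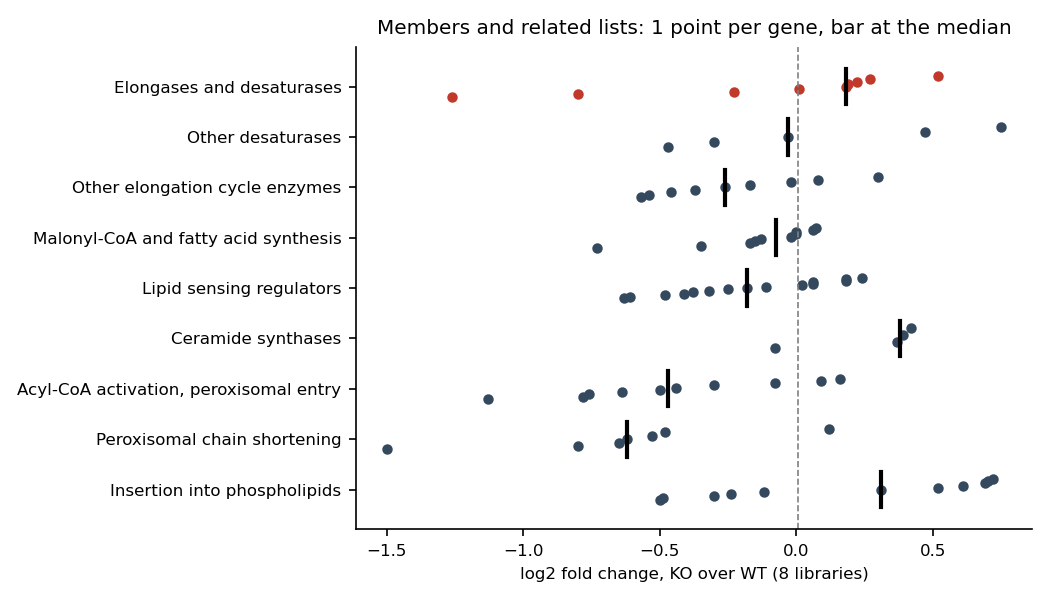
log2 fold change with all 8 libraries, KO over WT, for the 9 members (red) and the tested genes of 8 related lists (dark), 1 point per gene, with a black bar at each list's median and a dashed line at the median of all genes (0.004). Members lie on both sides of the line, while the peroxisomal list (median -0.62) and the list of acyl-CoA activation and peroxisomal entry (median -0.47) lie mostly left of it.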

How the data were processed

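The authors deposited whole-number read counts per gene in 1 table. The submitters' processing notes name the build GRCm39, while aligner, counter and annotation have no mention in the sources used here. Libraries were poly(A)-selected and took up dUTP in second-strand synthesis, per the labels' protocols. Symbols and exon lengths came from GENCODE M21 (18321 of 18395 genes); exon lengths of that GRCm38 annotation scale levels per kilobase and may differ from those the authors counted. Genes were kept by filterByExpr (13901), scaled by TMM, and KO was set against WT in edgeR 4.0.16 (R 4.3.3) by the robust quasi-likelihood test, group as the only term and Benjamini-Hochberg adjustment over all genes. Intervals are 95%, from the fold change and F statistic. Correlations were taken on log2 CPM (prior count 2) over genes of mean log2 CPM of at least 1.

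Alternatives were other scalings, filters and thresholds, DESeq2 1.42.0, limma 3.58.1 (voom), a replicate block and libraries left out. Members and lists were chosen with earlier results of these data known. Named genes were the members, Fermt2, up to 3 genes with the smallest p per list and 3 nearest genes per member, not all of which are printed. Scd1, Fasn, Acaca, Acacb, Slc25a1, Acss2, Tecr, Srebf1, Mlxipl, Cers2, Elovl2, Cdc20, Pitx3, Ucp1, Pdk4, Cidea and Cox8b were added after their values were seen. Krt5 and Awat1 of the marker lists were not matched in the table. Figures were drawn with matplotlib 3.10.9.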

Additional observations from a re-analysis of the deposited data

How the results depend on the processing

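Over 22 alternatives, 196 fold changes of members were recomputed: 172 kept direction and side of the threshold, 11 (of Elovl1 and Elovl3) newly passed it, 0 lost it and 13 turned direction. The number of genes called, 0 with the settings used, was 882 with total library size, 1151 with factors from adipocyte markers, 1113 with DESeq2, 911 with limma-voom and quality weights, 461 without WT replicate 3 and KO replicate 2, 249 at an adjusted p under 0.10 and 1 without a filter. Members called were 1 with total library size, 2 with adipocyte factors, 2 with DESeq2, 2 with quality weights, 2 in the 6-library comparison and 1 at 0.10. Leaving out each library in turn gave 0 to 361 genes and 0 to 2 members, with 361 and 2 without KO replicate 2. Those rescalings moved the median of all genes to 0.26 and 0.33. The signs that turned were those of Elovl6 (0.01 with total library size, 0.12 with adipocyte factors), Elovl7 (-0.27 with quality weights, -0.30 in the 6-library comparison, -0.12 to 0.40 over libraries left out) and Fads3 (-0.10 with limma-voom, -0.12 to 0.25 over libraries left out). Relative to the median of all genes, Elovl6 stood at -0.26 with total library size and -0.21 with adipocyte factors, against -0.24 with the settings used. For Elovl7 and Fads3 the cause was not tested.

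With the replicate block, 0 genes and 0 members were called and Fads3 was at -0.09; in the 6-library comparison Fads3 was at 0.29 and kept its sign. Deviations of same-numbered KO and WT libraries correlated at -0.13 to 0.228, and 3 of 8 libraries correlated best with their own number, so the numbers were not taken to pair the samples. Of 176 recomputed list counts 22 differed from the main count, all upward from 0, and of 45 recomputed ratio differences 0 moved by more than the spread between replicates. The strict filter removed Elovl4 and Elovl7. These 2 genes had at most 36 counts in a library.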

Other observations

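The parity of the counts was uneven at low levels. Among gene counts of 1 to 40, 67.6% to 68.9% were even in KO and 68.1% to 68.8% in WT, while among counts above 1000 and up to 100000 the share was 48.0% to 50.7% in KO and 48.8% to 50.9% in WT. Elovl7 had even counts in all 8 libraries and Elovl4 in 7 of 8. Whether reads or read pairs were counted is not given in the sources used here.

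KO replicate 1, the library lowest in Elovl6, Fasn, Acaca and Scd1, was also the library highest in Fads1 (26.3 CPM) and Cers5 (55.3 CPM). The summed level of the 9 members was 93.7 CPM per kilobase in KO replicate 1 and 125 to 131 in the other KO libraries, against 105 to 140 in WT.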
